A study of Homo sapiens with 17 samples.

Results

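The Notch genes described here are 10 of the 62754 genes counted in IMR90 ER:RAS fibroblasts, and were chosen by symbol as the receptors NOTCH1, NOTCH2 and NOTCH3, the ligands JAG1 and JAG2, and the targets HES1, HES4, HEY1, HEYL and NRARP. All 10 passed the filter on low counts, as did 19473 genes in total. HEYL passed only through 4OHT siNT, where all 6 libraries reached the filter's level of 0.19 CPM, against 0 in DMSO siNT and 2 in 4OHT siSMARCA4. It therefore had to differ from the other groups, and its tests are given as a description. The other 9 genes reached that level in all 17 libraries. IMR90 ER:RAS cells are fibroblasts of human lung whose RAS transgene, an oestrogen receptor fusion, is activated by 4-hydroxytamoxifen (4OHT), after which they become senescent, and DMSO is the vehicle. On the day before 4OHT or DMSO, cells received either a control siRNA without a target (siNT) or one against SMARCA4 (siSMARCA4), which encodes a catalytic subunit of SWI/SNF remodellers, and RNA was taken at day 7. There were 5 libraries of DMSO siNT, 6 of 4OHT siNT and 6 of 4OHT siSMARCA4, all from the same engineered line. No library combined DMSO with siSMARCA4, so the knockdown outside senescence was not measured. Each label also carries an siRNA number, 2 or 4, a replicate number, and a tag, V or VM, whose meaning is not given. Library names give these in that order, and below a number alone means the siRNA number. The names 2-2 in DMSO siNT and 2-3 and 4-2 in 4OHT siSMARCA4 each occur as a V and a VM library. Whether such a pair came from the same culture is not given, and each library was counted separately. The 4OHT siNT group held VM libraries only, whereas 3 of 5 DMSO siNT and 3 of 6 siSMARCA4 libraries were VM.

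Notch receptors are bound by ligands on a neighbouring cell, are cut by ADAM proteases and then by gamma-secretase, and release an intracellular domain that joins RBPJ and Mastermind proteins on DNA. The best known targets are the HES and HEY genes, which encode transcriptional repressors, and NRARP, which encodes a feedback inhibitor of the receptor complex. In fibroblasts with active RAS, NOTCH1 is known to shift the secretome between a TGF-beta arm and an inflammatory arm, and JAG1 is known to carry the signal to neighbouring cells.

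The promoters of 3 targets are shown because they are the only ones among the 9 matched that hold the core letters bound by RBPJ. RefSeq promoters (250 bases before to 50 after the start site, GRCh38.p14) were found for 9 of the 10 genes; HEY1 was not matched. The core TGGGAA was searched on both strands and is in capitals, as TGGGAA on the printed strand or as its reverse complement on the other.
HES1: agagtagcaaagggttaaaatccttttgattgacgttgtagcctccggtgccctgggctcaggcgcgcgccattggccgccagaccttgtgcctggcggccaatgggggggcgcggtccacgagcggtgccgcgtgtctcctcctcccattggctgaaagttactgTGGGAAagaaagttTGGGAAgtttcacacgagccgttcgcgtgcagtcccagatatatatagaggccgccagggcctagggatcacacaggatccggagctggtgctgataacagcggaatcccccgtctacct
HES4: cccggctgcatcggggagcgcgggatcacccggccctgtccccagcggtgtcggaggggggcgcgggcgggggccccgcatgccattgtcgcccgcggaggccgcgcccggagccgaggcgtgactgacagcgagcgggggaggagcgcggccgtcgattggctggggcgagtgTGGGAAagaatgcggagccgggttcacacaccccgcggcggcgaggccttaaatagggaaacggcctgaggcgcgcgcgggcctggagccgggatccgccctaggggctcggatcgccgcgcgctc
HEYL: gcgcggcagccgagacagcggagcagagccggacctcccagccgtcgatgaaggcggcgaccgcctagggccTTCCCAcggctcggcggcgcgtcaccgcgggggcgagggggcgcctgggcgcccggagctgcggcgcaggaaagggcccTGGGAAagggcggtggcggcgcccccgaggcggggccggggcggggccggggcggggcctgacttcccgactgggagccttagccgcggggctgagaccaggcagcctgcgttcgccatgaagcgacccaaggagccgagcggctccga
The HES1 window lies at chr3:194135898-194136197 on the plus strand, the HES4 window at chr1:1000048-1000347 on the minus strand and the HEYL window at chr1:39639594-39639893 on the minus strand. HES1 held 2 matches in the same orientation, beginning at -84 and -70 from the start site, 14 bases apart. HES4 held a single match at -76, and HEYL held matches at -178 (reverse) and -99. Each of the 3 windows also held the longer GTGGGAA once, at a position that overlaps a TGGGAA match. Among all 35116 promoters of this length, 8439 (24%) held TGGGAA, 3.80% held it at least 2 times and 6.25% held GTGGGAA. The windows of NOTCH1, NOTCH2, NOTCH3, JAG1, JAG2 and NRARP held no TGGGAA, and none of the 9 held TGANTCA, the AP-1 letters (7.71% of all promoters), or CACGTG (7.26%). The JAG2 window was the richest of the 9 in G and C at 79.7%, against a median of 58.7% over all promoters, and HES1 was the poorest at 59.0%.

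The targeted transcript, SMARCA4, was 252.6 to 285.6 CPM in 4OHT siNT, 68.4 to 126.6 CPM in 4OHT siSMARCA4 and 167.7 to 215.1 CPM in DMSO siNT, with no overlap between siSMARCA4 and either siNT group. The highest remaining level was in the siSMARCA4 library 4-2V. Of the fibroblast markers COL1A1, COL1A2, COL3A1, VIM, PDGFRB and THY1, all 6 were expressed, with a summed level of 22208 to 26588 CPM in DMSO siNT, 13315 to 17418 CPM in 4OHT siNT and 7483 to 10758 CPM in 4OHT siSMARCA4. In siSMARCA4 against siNT 5 of 6 fell, beside 13.8% of all genes, and in 4OHT against DMSO 5 of 6 fell, beside 27.4%. Endothelial markers summed to 3.44 to 10.8 CPM in DMSO siNT, 9.62 to 14.1 CPM in 4OHT siNT and 6.78 to 10.4 CPM in 4OHT siSMARCA4, with CDH5, the defining cadherin, at 0 in every DMSO library and at most 0.118 CPM elsewhere. Of the 4 endothelial markers that passed the filter, 3 rose in 4OHT against DMSO, beside 27.0% of all genes. In siSMARCA4 against siNT 1 of the 4 fell, beside 13.8%. PECAM1 was at most 0.0524 CPM in DMSO siNT, so it passed through the 4OHT groups. VWF averaged 1.11 CPM in DMSO siNT and 3.76 CPM in 4OHT siNT. Epithelial markers summed to 31.0 to 47.3 CPM in DMSO siNT and at most 2.64 CPM in 4OHT. KRT19 made up most of the DMSO level, with a mean of 38.1 CPM, and KRT5 was at 0 in every library. Haematopoietic markers did not exceed 0.347 CPM and smooth muscle markers, mostly ACTA2, summed to 218.4 to 489.9 CPM in DMSO siNT and 57.3 to 99.9 CPM in 4OHT. The part of these markers in the results below was not tested, and fewer cells of a type cannot be told apart from less RNA per cell.

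Per kb of exon, the 10 genes spanned a wide range of levels. In DMSO siNT the order ran from NOTCH3 at 11.5 ± 3.17 CPM per kb (SD, n = 5) through NOTCH2, HES4, HES1, JAG1, NOTCH1, JAG2, HEY1 and NRARP to HEYL at 0.0123 ± 0.0142 CPM per kb. NOTCH3, NOTCH2, HES4 and HES1 overlapped their neighbours in this order, as did JAG2, HEY1 and NRARP. In 4OHT siNT, HES1 led at 23.6 ± 5.50 CPM per kb (SD, n = 6), followed by HES4 at 12.9 ± 2.10 and NOTCH3 at 11.6 ± 1.17, with overlap at each step. In 4OHT siSMARCA4 HES4 led at 28.0 ± 9.43 CPM per kb (n = 6), above HES1 at 15.1 ± 4.23, although their libraries overlapped. HEYL was last in all 3 groups, and its level in 4OHT siNT overlapped that of NRARP.

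**Figure D1:**
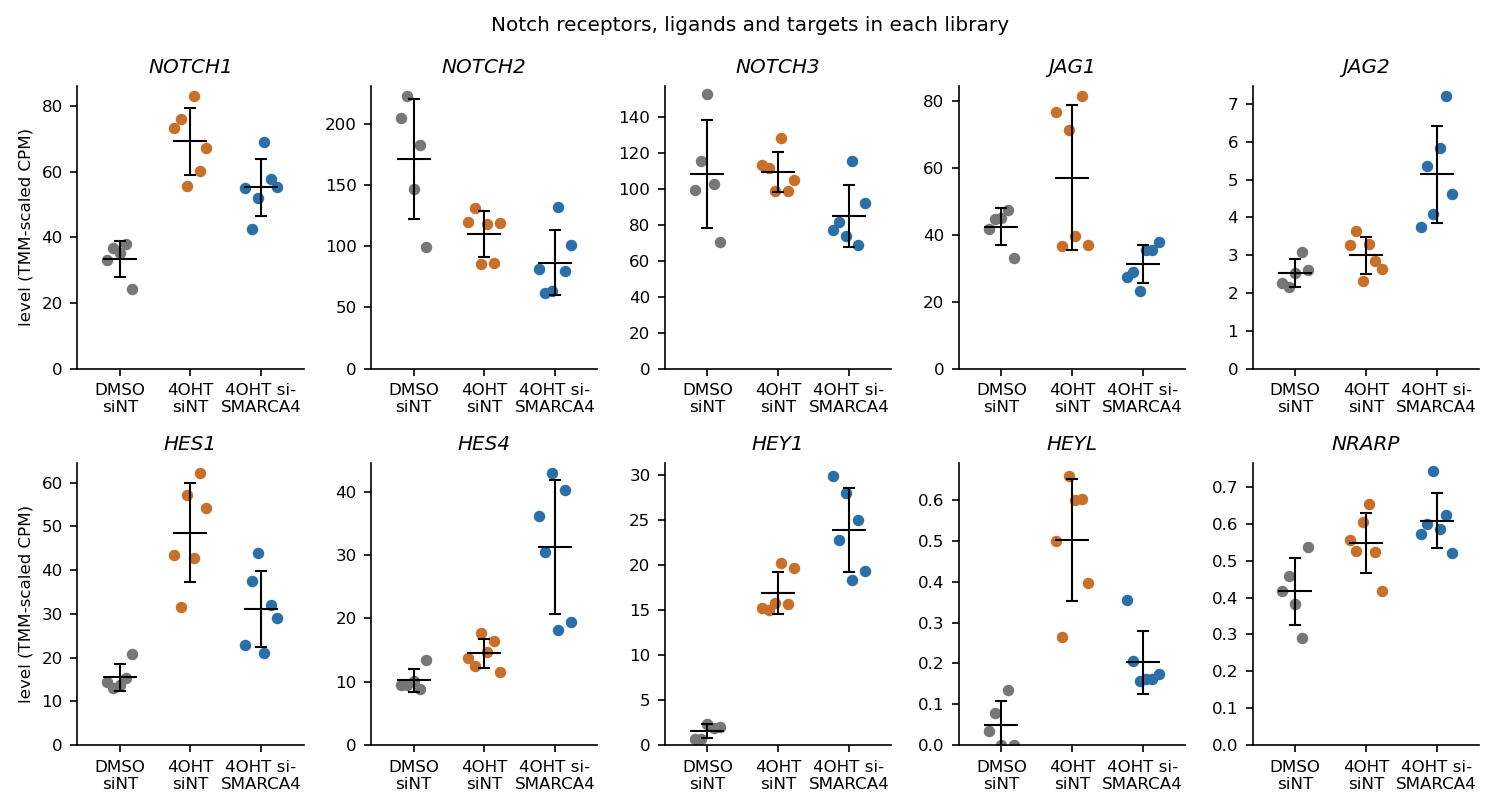
Level of each Notch gene (TMM-scaled CPM, linear axis from 0) in each library of the 3 groups; points are libraries, the bar is the mean and the whiskers are 1 SD. HES1, HEY1, HEYL and NOTCH1 separate 4OHT siNT from DMSO siNT, and JAG2 and HES4 separate siSMARCA4 from siNT within 4OHT.

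The share of the Notch genes called was near that of all genes with 4OHT, and the tests of HEYL, which the filter favours, are counted here and then left out. In 4OHT against DMSO within siNT, 6 of 10 were called, 5 higher and 1 lower, against 54.4% of all genes tested (27.0% higher and 27.4% lower). In siSMARCA4 against siNT within 4OHT, 5 of 10 were called, 2 higher and 3 lower, against 24.2% (10.4% higher and 13.8% lower). In 4OHT siSMARCA4 against DMSO siNT, 8 of 10 were called, 7 higher and 1 lower, against 55.1% (26.5% and 28.6%). Without HEYL, 5, 4 and 7 of the other 9 genes were called in these comparisons. The median log2 fold change of the 10 genes was 0.46 for 4OHT, -0.34 for the knockdown and 0.87 for both together, beside 0.00, -0.02 and -0.01 over all genes. Libraries of the 2 groups did not overlap for 4 of the 10 genes in 4OHT against DMSO, beside 39.6% of all genes, and for 2 of the 10 in siSMARCA4 against siNT, beside 12.0%. Without HEYL these were 3 and 2 of 9, and the medians were 0.43, -0.33 and 0.73. Each pair of these comparisons shares a group of libraries, so their values are set side by side only.

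**Figure D2:**
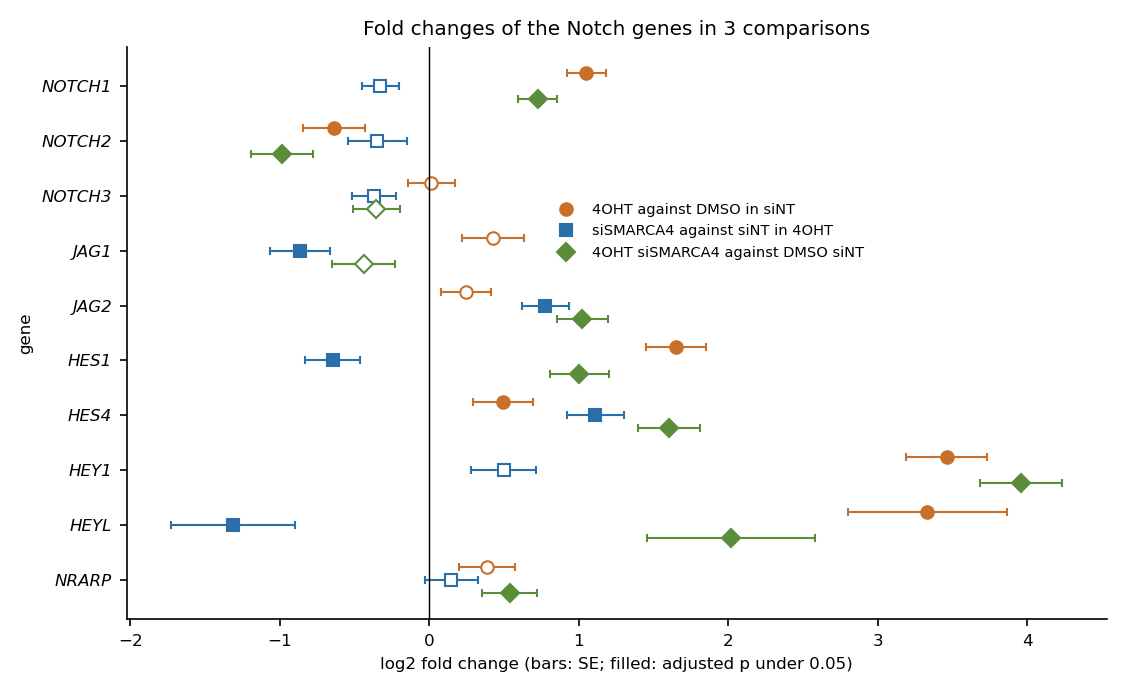
Log2 fold change of each Notch gene in 4OHT against DMSO within siNT (circles), siSMARCA4 against siNT within 4OHT (squares) and 4OHT siSMARCA4 against DMSO siNT (diamonds), with SE bars; filled symbols had an edgeR adjusted p under 0.05. HEY1 rose in both comparisons with DMSO, and HES1 and HES4 lie on opposite sides of 0 after the knockdown.

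Of the receptors, NOTCH1 rose and NOTCH2 fell in senescent cells. None of the 3 passed the test after the knockdown in the fit of all libraries by group alone, but some alternatives called them. NOTCH1 (ENSG00000148400, chr9:136494433-136546048), the receptor tied to the senescent secretome, held 33.0, 36.6, 35.1, 37.8 and 24.2 CPM in DMSO siNT. It ranged from 55.4 through a median of 70.2 to 83.1 CPM in 4OHT siNT and from 42.4 through 55.1 to 68.9 CPM in 4OHT siSMARCA4. All DMSO libraries lay below all 4OHT libraries, while the 4OHT groups overlapped each other. NOTCH1 rose by 1.05 on the log2 scale with 4OHT (SE 0.13, edgeR adjusted p = 1.8e-06). Its difference after the knockdown was -0.33 (SE 0.12, adjusted p = 0.0623), and with siSMARCA4 it stayed 0.73 above DMSO (SE 0.13, adjusted p = 0.00011).

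NOTCH2 (ENSG00000134250, chr1:119911553-120100779) is the receptor with near-identical copies of its first exons in NOTCH2NLA, NOTCH2NLB, NOTCH2NLC and NOTCH2NLR, so its counts are uncertain where reads could be split among them. It held 205.1, 223, 146.7, 183 and 99.2 CPM in DMSO siNT. The range was 85.7 to 131.1 CPM (median 118.7) in 4OHT siNT and 61.6 to 131.8 CPM (median 80.5) in 4OHT siSMARCA4. The lowest DMSO library, number 4 with tag VM, reached into both 4OHT groups. NOTCH2 fell by 0.64 with 4OHT (log2, SE 0.21, edgeR adjusted p = 0.0135), a call that was lost with VM libraries only (-0.40, adjusted p = 0.0698), with the tag as a covariate (-0.42, adjusted p = 0.0746), with number 4 only (-0.21, adjusted p = 0.521) and against siNT number 4 (-0.48, adjusted p = 0.12). In DMSO siNT both V libraries held more NOTCH2 than the 3 VM libraries, and 4OHT siNT was VM only. The knockdown difference was -0.35 (SE 0.20, adjusted p = 0.22). Of its copies, NOTCH2NLC rose by 0.54 and NOTCH2NLR fell by 0.71 after the knockdown (adjusted p = 0.0153 and 0.00787), both at means under 3.1 CPM.

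NOTCH3 (ENSG00000074181, chr19:15159038-15200995), a receptor of mural cells and fibroblasts, held 99.2, 115.4, 152.7, 102.5 and 70.5 CPM in DMSO siNT. It ranged from 98.8 to 128.1 CPM (median 108.2) in 4OHT siNT and from 68.4 to 115.5 CPM (median 79.1) in 4OHT siSMARCA4. The DMSO libraries covered most of the range of the 4OHT libraries. The difference was 0.02 with 4OHT (log2, SE 0.16, edgeR adjusted p = 0.944) and -0.37 after the knockdown (SE 0.15, adjusted p = 0.0824). Without the siSMARCA4 library 4-2V, all 3 receptors passed the test in siSMARCA4 against siNT, with log2 fold changes of -0.39 for NOTCH1, -0.50 for NOTCH2 and -0.47 for NOTCH3 (adjusted p = 0.0189, 0.0462 and 0.0148). In that fit 8 of the 10 genes were called, and the leave-outs called 3631 to 5159 of all genes. NOTCH2 and NOTCH3 each stayed uncalled in 11 of 12 leave-outs, and NOTCH1 in 9. The siSMARCA4 libraries of number 2 against all 4OHT siNT libraries gave -0.48 for NOTCH1 and -0.68 for NOTCH2 (adjusted p = 0.0268 and 0.0359), with no overlap, and those of number 4 gave -0.19 and -0.08 (adjusted p = 0.435 and 0.865). In these comparisons 5 and 3 of the 10 genes were called, beside 22.7% and 10.9% of all genes. Within number 2 alone, NOTCH1 differed by -0.30 and NOTCH2 by -0.46 (adjusted p = 0.106 and 0.104). Within number 4 alone, they differed by -0.32 and -0.24 (adjusted p = 0.261 and 0.538). NOTCH1 was also called against siNT number 4 (-0.45, adjusted p = 0.0288) and without the siNT library 2-2VM (-0.38, adjusted p = 0.0334) or 2-3VM (-0.35, adjusted p = 0.0491). With the V or VM tag as a covariate, NOTCH2 (-0.60) and NOTCH3 (-0.49) passed the test as well (adjusted p = 0.0285 and 0.0383). Both also passed with VM libraries only (-0.54 and -0.57, adjusted p = 0.041 and 0.0241). NOTCH3 passed with only these 2 groups in the fit (-0.36, adjusted p = 0.0286).

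The ligands moved apart after the knockdown: JAG2 rose and JAG1 fell. The size of the fall of JAG1 depended on which siNT libraries served as the control. JAG2 (ENSG00000184916, chr14:105140982-105168824), a ligand of low level in these cells, held 2.25, 2.17, 2.52, 3.08 and 2.62 CPM in DMSO siNT. It ranged from 2.31 through a median of 3.07 to 3.64 CPM in 4OHT siNT and from 3.75 through 4.99 to 7.22 CPM in 4OHT siSMARCA4. Each siSMARCA4 library exceeded each siNT library, while DMSO and 4OHT siNT overlapped. JAG2 rose by 0.78 after the knockdown (log2, SE 0.16, edgeR adjusted p = 0.00192) and its difference with 4OHT alone was 0.25 (SE 0.17, adjusted p = 0.229). It was called after the knockdown under all 24 alternatives run, with log2 fold changes of 0.66 to 0.88 and adjusted p of 3.56e-05 to 0.039. An unnamed lncRNA overlaps JAG2 on the same strand, and reads in the overlap could not be separated here.

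JAG1 (ENSG00000101384, chr20:10637684-10673999), a ligand that binds Notch receptors on neighbouring cells, held 41.7, 44.8 and 45.1 CPM in DMSO siNT of number 2 and 47.3 and 33.0 CPM in number 4. In 4OHT siNT it held 76.7, 71.2 and 81.4 CPM in number 2 and 36.5, 39.5 and 36.8 CPM in number 4. In 4OHT siSMARCA4 it held 27.2, 28.8 and 23.1 CPM in number 2 and 35.4, 35.3 and 37.8 CPM in number 4. The 4OHT siNT libraries thus formed separate sets by siRNA number, and the siSMARCA4 libraries did so in the other direction, whereas the DMSO libraries of the numbers overlapped. In siSMARCA4, NOTCH1 also separated by number, at 42.4 to 54.9 CPM in number 2 and 55.2 to 68.9 CPM in number 4. The share of all genes that separate by number is not given here. Over all libraries JAG1 fell by 0.87 after the knockdown (log2, SE 0.20, edgeR adjusted p = 0.00477), and its difference with 4OHT was 0.43 (SE 0.21, adjusted p = 0.0959). With 4OHT it rose by 0.76 within number 2 alone (adjusted p = 5.46e-05) and differed by -0.11 within number 4 alone (adjusted p = 0.582), and it was called when any 1 of the 4OHT siNT libraries 4-1VM, 4-2VM and 4-3VM was left out (0.51 to 0.53). Within number 2 alone the knockdown difference was -1.50 (adjusted p = 1.71e-05) and within number 4 alone it was -0.06 (adjusted p = 0.806). Against all 4OHT siNT libraries, the siSMARCA4 libraries of number 2 differed by -1.11 (adjusted p = 0.00408). Those of number 4 averaged 36.2 CPM, below the mean of 57.0 CPM over all 4OHT siNT libraries and near the 37.6 CPM of siNT number 4. Against the siNT libraries of number 4 as the only control, all siSMARCA4 libraries differed by -0.27 (adjusted p = 0.167), and against those of number 2 by -1.29 (adjusted p = 6.89e-06).

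The split of JAG1 was then fitted across all genes, in comparisons added after these values were seen. Their p-values for JAG1 are therefore a description. Between siNT number 2 and number 4 in 4OHT, JAG1 was 76.4 ± 5.13 against 37.6 ± 1.62 CPM (SD, n = 3 each), a log2 difference of 1.02 (SE 0.16, edgeR adjusted p = 0.00926). It was the only one of the 10 genes called, against 2.90% of all genes. That call did not survive leaving out the library 4-1VM, 4-2VM or 2-3VM, with differences of 0.97 to 1.07 and adjusted p of at most 0.0677 over the 6 leave-outs, and the number of genes called ran from 0 to 1219 among them. To compare the knockdown effects, siNT and siSMARCA4 libraries were matched by number, a matching that no label states. The difference between the effects of number 2 and number 4 was -1.48 for JAG1 (SE 0.17, adjusted p = 0.00127). It was called in each of the 12 fits that left out a library (-1.55 to -1.39), and 0.714% of all genes were called in this comparison, with no other of the 10 genes among them. Between the siSMARCA4 libraries of number 2 and number 4 themselves, none of the 10 genes was called by edgeR or DESeq2, against 0.0462% of all genes by edgeR and 238 genes by DESeq2. At an unadjusted p under 0.05 it was 1 of 10, NOTCH2, against 11.1% of all genes. In that comparison JAG1 differed by -0.46 (SE 0.27, adjusted p = 0.549), although the libraries did not overlap. A number names different siRNAs in the siNT and siSMARCA4 groups, because siNT has no target. The labels do not say whether it also names a shared culture or series of transfections. The parts of the siRNA, the culture and the series therefore cannot be told apart.

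**Figure D3:**
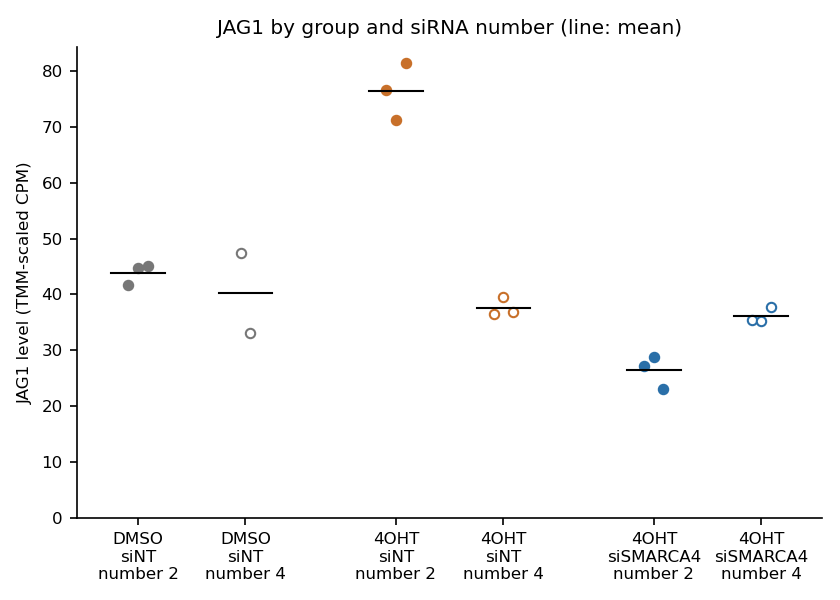
JAG1 level (TMM-scaled CPM, linear axis from 0) in each library by group and siRNA number; points are libraries (filled, number 2; open, number 4) and lines are means. The 3 libraries of 4OHT siNT number 2 sit between 71.2 and 81.4 CPM, above all other libraries, which sit between 23.1 and 47.3 CPM.

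Among the targets, HES1 and HEY1 rose in senescence, HES4 was called at the threshold, and after the knockdown HES4 rose while HES1 fell. HES1 (ENSG00000114315, chr3:194136148-194138732), the canonical repressor downstream of Notch whose promoter held 2 RBPJ core matches, held 14.5, 13.0, 13.8, 15.2 and 20.8 CPM in DMSO siNT. It ranged from 31.5 through a median of 48.8 to 62.1 CPM in 4OHT siNT and from 21.1 through 30.5 to 43.99 CPM in 4OHT siSMARCA4. All DMSO libraries lay below all 4OHT libraries, whereas siNT and siSMARCA4 overlapped between 31.5 and 43.99 CPM. HES1 rose by 1.65 with 4OHT (log2, SE 0.20, edgeR adjusted p = 1.17e-06) and fell by 0.64 after the knockdown (SE 0.18, adjusted p = 0.0162). It remained 1.01 above DMSO in siSMARCA4 cells (SE 0.20, adjusted p = 0.000249), a call lost with number 4 only (0.58, adjusted p = 0.0989). The knockdown difference was -0.46 to -0.80 over the 24 alternatives and missed the threshold in 6 of them, among them VM libraries only (-0.55, adjusted p = 0.108) and the fit without the siSMARCA4 library 2-1VM (-0.57, adjusted p = 0.0504).

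HES4 (ENSG00000188290, chr1:998962-1000172), a HES repressor with no mouse counterpart, went the other way after the knockdown. It held 9.43, 9.41, 10.1, 8.91 and 13.4 CPM in DMSO siNT. The range was 11.6 to 17.7 CPM (median 14.3) in 4OHT siNT and 18.2 to 42.9 CPM (median 33.4) in 4OHT siSMARCA4. Each siSMARCA4 library exceeded each siNT library. HES4 rose by 1.11 after the knockdown (log2, SE 0.19, edgeR adjusted p = 0.000511), a 2.16-fold change, and was called in 23 of 24 alternatives, the exception being number 4 alone (1.00, adjusted p = 0.073). Its rise of 0.49 with 4OHT (SE 0.20, adjusted p = 0.0467) lay at the threshold and was lost in 15 of 23 alternatives, with values of 0.19 to 0.69. In siSMARCA4 cells HES4 stood 1.61 above DMSO siNT (SE 0.21, adjusted p = 2.26e-06).

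HEY1 (ENSG00000164683, chr8:79762371-79767857), a HEY repressor, rose with 4OHT. Its fitted change exceeded that of HEYL, the next in size, but HEYL exceeded it in 6 of 23 alternatives. It held 0.681, 0.697, 2.33, 1.88 and 2.05 CPM in DMSO siNT. It ranged from 14.98 through a median of 15.7 to 20.2 CPM in 4OHT siNT and from 18.4 through 23.9 to 29.9 CPM in 4OHT siSMARCA4. DMSO was separate from both 4OHT groups, which overlapped each other. HEY1 rose by 3.46 with 4OHT (log2, SE 0.27, edgeR adjusted p = 3.44e-09), an 11.0-fold change. It was called in all 23 alternatives, at 2.99 to 3.63. The 4OHT siNT group was VM only, and in DMSO siNT HEY1 averaged 0.689 CPM in V and 2.08 CPM in VM libraries. After the knockdown its difference was 0.50 (SE 0.22, adjusted p = 0.107), which passed the test with VM libraries only (0.72, adjusted p = 0.000518), with the tag as a covariate (0.90, adjusted p = 0.000822) and with only these 2 groups in the fit (0.50, adjusted p = 0.0137).

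In the siSMARCA4 group, V and VM libraries differed by the test for HES4 and SMARCA4, and did not overlap for HEY1 and NOTCH3, which were not called. Libraries of the tags did not overlap for these 3 of the 10 Notch genes, beside 22.3% of all genes. HES4 was 18.2 to 30.5 CPM in the 3 V libraries and 36.2 to 42.9 CPM in the 3 VM libraries, a log2 difference of -0.81 (SE 0.19, edgeR adjusted p = 0.0319), in a comparison added after the values were seen in which 2.64% of all genes were called. That call held in 1 of the 6 fits without a library, the one without 2-3V (adjusted p up to 0.195 in the others, values of -1.08 to -0.70). HEY1 was 18.4 to 22.8 CPM in V and 25.01 to 29.9 CPM in VM (-0.46, SE 0.29, adjusted p = 0.454). SMARCA4 itself was 82.7 to 126.6 CPM in V and 68.4 to 78.3 CPM in VM (0.54, SE 0.13, adjusted p = 0.0309). NOTCH3 was 81.6 to 115.5 CPM in V and 68.4 to 76.7 CPM in VM (0.40, SE 0.19, adjusted p = 0.307), higher in V like SMARCA4, whereas HES4 and HEY1 were lower in V. In DMSO siNT, HEY1 was 0.681 to 0.697 CPM in the 2 V libraries and 1.88 to 2.33 CPM in the 3 VM libraries, and SMARCA4 was 167.7 to 192.1 CPM in V and 204.8 to 215.1 CPM in VM. JAG2 was 2.17 to 2.25 CPM in V and 2.52 to 3.08 CPM in VM there, and NOTCH2 was 205.1 to 223 CPM in V and 99.2 to 183 CPM in VM, so 3 of the 10 genes did not overlap by tag in DMSO siNT, beside 31.4% of all genes. HEY1 was thus lower in V in both groups, whereas SMARCA4 was higher in V in siSMARCA4 and lower in V in DMSO siNT. Within 4OHT siSMARCA4 the part of the tag cannot be told apart from that of the remaining SMARCA4. DMSO siNT received no siRNA against SMARCA4, and the part of the tag there was not tested.

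**Figure D4:**
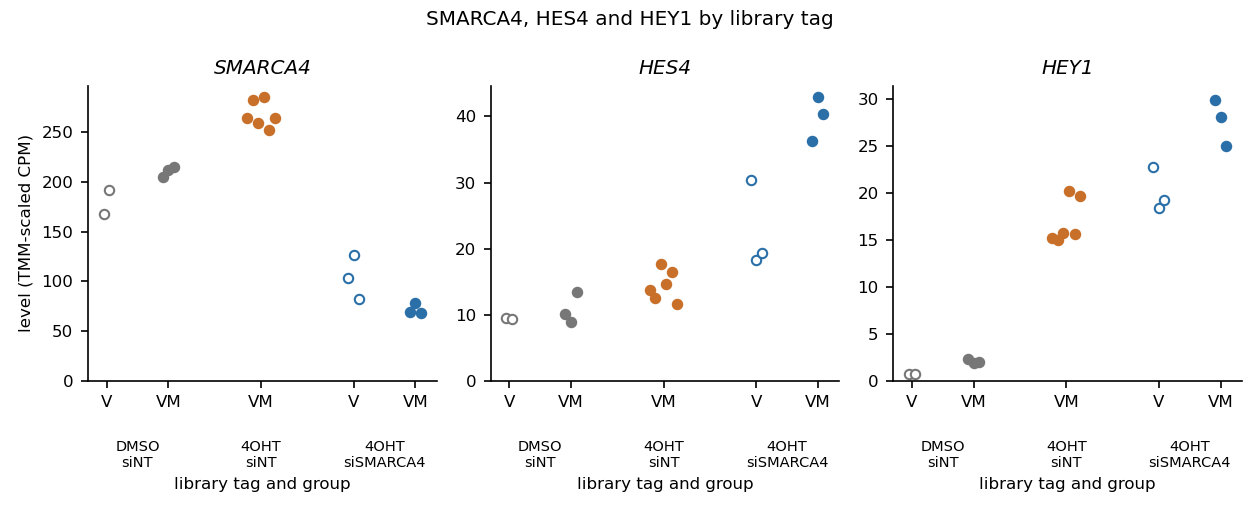
SMARCA4, HES4 and HEY1 levels (TMM-scaled CPM, linear axes from 0) in each library by group and by tag; open points are V and filled points are VM libraries. In 4OHT siSMARCA4 the V libraries sit above the VM libraries for SMARCA4 and below them for HES4 and HEY1.

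HEYL and NRARP were the least abundant targets. HEYL (ENSG00000163909, chr1:39623435-39639643), a HEY family repressor, had 2, 4, 0, 7 and 0 counts in the DMSO siNT libraries, 12 to 37 counts in 4OHT siNT and 8 to 18 counts in 4OHT siSMARCA4. On the CPM scale this was at most 0.136 in DMSO siNT, 0.264 to 0.659 (median 0.549) in 4OHT siNT and 0.157 to 0.355 (median 0.168) in 4OHT siSMARCA4. Only the DMSO libraries were separate from 4OHT siNT, and 1 siNT library overlapped the siSMARCA4 range. The fitted difference of HEYL was 3.33 with 4OHT (log2, SE 0.53, edgeR adjusted p = 3.1e-05) and -1.31 after the knockdown (SE 0.41, adjusted p = 0.0277), where the call was lost in 9 of 24 alternatives (-1.54 to -1.06, adjusted p up to 0.2). Left out in turn, the siNT libraries 2-2VM and 4-2VM and the siSMARCA4 libraries 2-3VM and 4-2VM each ended that call.

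NRARP (ENSG00000198435, chr9:137299631-137302271), the feedback inhibitor, had 15 to 40 counts in all 17 libraries. It held 0.419, 0.458, 0.382, 0.290 and 0.537 CPM in DMSO siNT, 0.417 to 0.654 CPM (median 0.542) in 4OHT siNT and 0.522 to 0.744 CPM (median 0.593) in 4OHT siSMARCA4. All 3 groups overlapped. The difference was 0.39 with 4OHT (log2, SE 0.19, edgeR adjusted p = 0.0876) and 0.15 after the knockdown (SE 0.17, adjusted p = 0.584). Only 4OHT siSMARCA4 against DMSO siNT passed the test, at 0.54 (SE 0.19, adjusted p = 0.0195), and that call was lost in 6 of 21 alternatives, among them the fits without DMSO siNT 2-2VM (0.48, adjusted p = 0.0548) and 4-2VM (0.42, adjusted p = 0.073). Without DMSO siNT 4-3VM the difference with 4OHT was called (0.50, adjusted p = 0.0364).

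The remaining genes of the pathway were read from a list of 58, of which 53 passed the filter. After the knockdown 5 rose, 13 fell and 35 were not called, so that 34.0% were called against 24.2% of all genes, with a median log2 fold change of -0.17. DLK1 passed the filter only through 4OHT siNT and so had to differ from the other groups, and without it 5 of 52 rose and 12 fell. The ligand DLL1 fell by 1.13 (edgeR adjusted p = 0.00167) from a mean of 1.05 CPM in siNT, and DLK1, a non-canonical ligand, was at 0.819 CPM in siNT and 0.105 CPM in siSMARCA4 (-2.91, adjusted p = 0.00039). MAML3, a Mastermind coactivator, fell by 1.13 (adjusted p = 0.000129). LFNG, which glycosylates the receptors, fell by 0.81, DTX4, a ubiquitin ligase, by 0.73, NOTCH4, the remaining receptor, by 0.68 and HES7, a HES repressor, by 0.63 (adjusted p = 0.0333, 0.0374, 0.0326 and 0.00205). Of the 9 proteases and gamma-secretase subunits 3 rose and 1 fell, and of the 7 genes of the nuclear complex none rose and 2 fell. Of all genes 10.4% were called higher and 13.8% lower in this comparison, and these small groups were not tested against that.

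In 4OHT against DMSO, 17 of these 53 genes rose, 14 fell and 22 were not called, with a median of 0.20, so that 58.5% were called against 54.4% of all genes. Without DLK1, 16 of 52 rose. These counts still hold HES2, whose rise against DMSO was favoured by the filter, as given below. The other HES and HEY genes that could be tested were HES2, HES6 and HES7, of which HES7 rose by 2.79 (log2, edgeR adjusted p = 2.67e-11) and HES2 had a fitted difference of 2.35. HES2 averaged 0.306 CPM in 4OHT siNT and HES7 7.67 CPM, and no DMSO library of HES2 reached the filter's level, so HES2 passed through the 4OHT groups. DLL1 rose by 2.30 and the value of DLK1 was 2.02 (adjusted p = 5.01e-07 and 0.00148). NUMB, an inhibitor of the receptors, rose by 1.43, the corepressor TLE3 by 1.27 and DTX4 by 1.20 (adjusted p = 2.87e-09, 7.92e-10 and 0.000734). NEURL1B, a ubiquitin ligase for ligands, fell by 4.27, the acetyltransferase KAT2B by 1.10 and DTX3L, a partner of PARP9, by 1.09 (adjusted p = 1.21e-08, 4.43e-07 and 8.53e-05).

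In 4OHT siSMARCA4 against DMSO siNT, 13 of the 53 rose, 13 fell and 27 were not called (median 0.00), so that 49.1% were called against 55.1% of all genes. HES7 rose by 2.16, DLL1 by 1.17, the ligand DLL3 by 1.10 and the gamma-secretase subunit PSENEN by 1.03 (edgeR adjusted p = 6.26e-10, 0.00095, 0.000991 and 1.53e-07). HES2, which passed the filter only through the 4OHT groups, is counted among the 13 that rose, at 0.298 CPM in siSMARCA4 and 0.0584 CPM in DMSO. NUMB rose by 1.07 and TLE3 by 1.06 (adjusted p = 1.05e-07 and 7.54e-09). NEURL1B fell by 5.30, LFNG by 1.26 and KAT2B by 1.14 (adjusted p = 1.34e-09, 0.00067 and 2.2e-07).

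**Figure D5:**
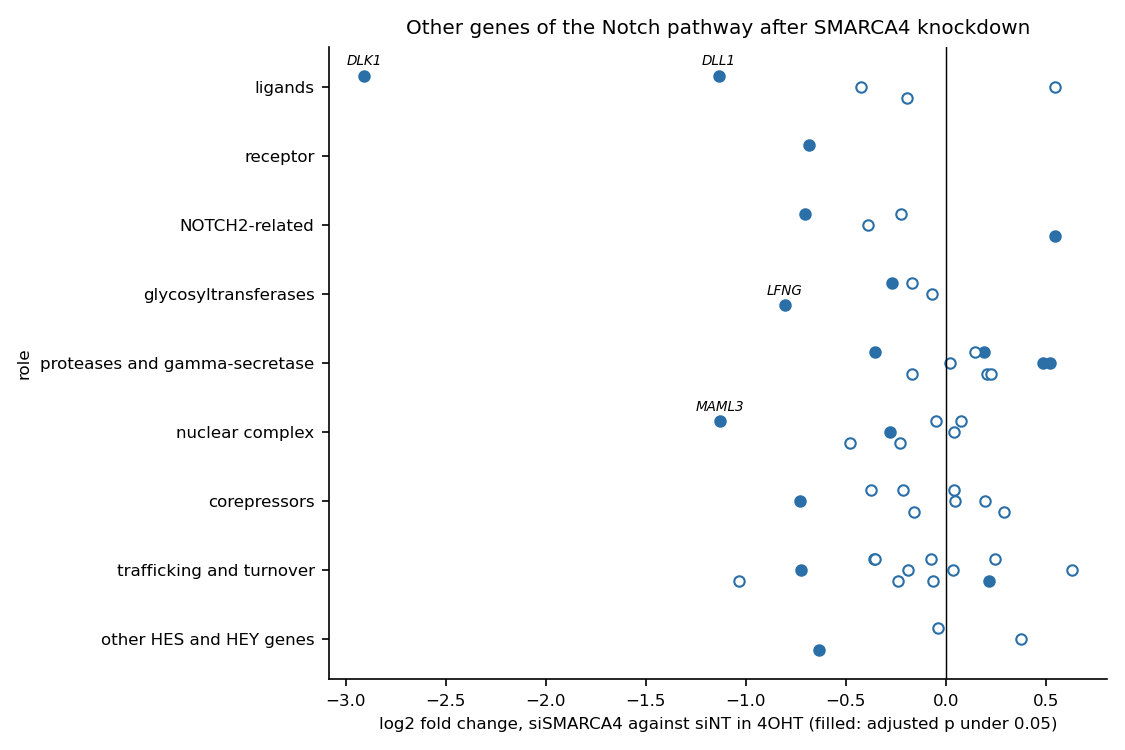
Log2 fold change after SMARCA4 knockdown within 4OHT of the 53 other Notch pathway genes that passed the filter, by role; filled points had an edgeR adjusted p under 0.05 and called genes with an absolute log2 fold change over 0.8 are named. DLK1 lies farthest to the left at -2.91.

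Genes whose log2 CPM over the 17 libraries followed each Notch gene most closely were named by Pearson's r among 12120 protein-coding genes. The points share their groups and libraries, so these are descriptions. HEY1 was followed by NPC1 (r = 0.994) and HS3ST3A1 (0.994), NOTCH1 by ATXN2L (0.983) and ZBED4 (0.982), and NOTCH2 by ZFYVE9 (0.970) and BLTP1 (0.963). NOTCH3 was followed by PPARD (0.938) and POGK (0.930), HES1 by SULT1A3 (0.945) and SAMM50 (0.933), and HES4 by SRRD (0.950) and PPT1 (0.947). JAG1 was followed by PPP1R8 (0.902) and TEX9 (0.898), JAG2 by TMBIM1 (0.908) and TNIP3 (0.900), HEYL by AFAP1L2 (0.925) and ABCG1 (0.917), and NRARP by ZFPM1 (0.876) and PANO1 (0.845). SULT1A3 has a near-identical copy elsewhere in the genome, so its counts are uncertain.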

How the data were processed

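IMR90 ER:RAS cells were profiled at day 7 by paired-end, strand-specific RNA sequencing of poly(A)-selected RNA. The authors trimmed reads with cutadapt 4.7, aligned them to GRCh38 with HISAT2 2.2.1 and used TElocal for counting, reverse-stranded, with multi-mapping pairs shared among their loci. They deposited 1 table per library of expected counts, written as whole numbers and not normalised, for genes and repeat loci. The study's methods name an older Ensembl release for counting, whereas all 62700 GENCODE 44 gene identifiers are among the 62754 genes of the tables, so symbols, positions and exon lengths were taken from GENCODE 44.

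From these counts, genes were joined with repeat subfamilies and rows were kept by filterByExpr (minimum count 10, minimum total 15), which left 19473 genes and 1026 subfamilies. Libraries were scaled by TMM factors of 0.949 to 1.08. The 17 libraries entered a single quasi-likelihood fit in edgeR 4.0.16 (R 4.3.3) that had a coefficient for each group, and p-values were adjusted by Benjamini-Hochberg over all genes tested. A gene was called when its adjusted p was under 0.05. Each fold change is reported on the log2 scale with its SE. Levels are TMM-scaled CPM, with a level per kb of summed exon length where genes are compared with each other. The fit was tested on simulated data. Library totals were 39109479 to 68978119 counts. The labels do not say that libraries came from separate cultures, so p-values measure the spread between these libraries, which may be technical.

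Alternatives were RLE size factors, DESeq2 1.42.0, no filter, genes without repeats, only the groups compared, a replicate block, the V or VM tag as a covariate, VM libraries only, each siRNA number alone, and leaving out each library. The fits that split siNT libraries by number, that compare the effects of the numbers and that compare V with VM were added after the values were seen. The genes described, the pathway, secretome and marker lists were chosen with earlier results of these data known. Named from these lists were SMARCA4, the 10 Notch genes, up to 10 called pathway genes per comparison with the largest change, all secretome genes, and for each Notch gene the 2 protein-coding genes with a mean of 1 CPM or more and the highest Pearson's r over the libraries. One gene that this rule names is not reported here. Plots were drawn with Python 3.11.15 and matplotlib 3.10.9.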

Additional observations from a re-analysis of the deposited data

Results flagged for a closer look

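In DMSO siNT, the library 4-3VM stood above the other 4 for HES1, at 20.8 CPM, and for HES4, at 13.4 CPM, with gaps to the next library of 0.714 and 0.724 of the group's range. In 4OHT siSMARCA4, the library 2-1VM stood above the other 5 for HEYL, at 0.355 CPM from 18 counts, with a gap of 0.748 of the range. These were 3 of 33 groups examined by Dixon's test, and chance marks about 5% of groups.

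JAG1 differed by 1.02 on the log2 scale between siNT number 2 and number 4 in 4OHT, and its knockdown effect differed by -1.48 between the numbers (edgeR adjusted p = 0.00926 and 0.00127). HES4 differed by -0.81 between V and VM libraries of 4OHT siSMARCA4 (adjusted p = 0.0319), a call lost in 5 of 6 fits without a library. These 3 comparisons were chosen after the values were seen, so their p-values are a description. The 2nd matches siNT and siSMARCA4 libraries by number, which no label states.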

How the results depend on the processing

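For siSMARCA4 against siNT in 4OHT, 24 alternatives gave 240 values over the 10 genes, of which 208 kept their direction and side of the threshold, 18 lost a call, 14 gained one and 0 changed sign. The number of Notch genes called, 5 with HEYL counted, became 3 with siRNA number 2 only, 1 with number 4 only and 3 against siNT number 4 as the only control. It was 4 to 8 when single libraries were left out, beside 3631 to 5159 of all genes. The genes called, 4703, became 1075 with number 4 only (4459 with number 2 only) and 3131 against siNT number 2. The count of all genes against siNT number 4 is not given here. For 4OHT against DMSO, NOTCH3 (0.02) became -0.011 without a filter, -0.011 with VM libraries only, -0.28 with number 2 only, 0.40 with number 4 only and -0.061 against siNT number 2, and was -0.10 to 0.15 in leave-outs, while JAG1 (0.43) became -0.11 with number 4 only and -0.17 with siNT number 4, and it was called at 0.76 with number 2 only, 0.85 against siNT number 2 and 0.51 to 0.53 in 3 leave-outs. For 4OHT siSMARCA4 against DMSO siNT with number 4 only, 4 Notch genes were called instead of 8 (7566 of all genes instead of 10725) and NOTCH3 was 0.070 instead of -0.35, while NOTCH3 was called as lower in 7 other alternatives, farthest from 0 with number 2 only (-0.66). Between the siSMARCA4 numbers, 9 genes were called, against 69 without a filter, 18 with the tag as a covariate, 238 by DESeq2 and 1 to 654 in leave-outs, with 0 to 1 Notch genes (HES4 without 4-2VM). Between the siNT numbers in 4OHT, leave-outs called 0 to 1219 genes and 0 to 1 Notch genes, and NRARP ran from -0.072 to 0.26. Between V and VM, leave-outs called 0 to 1 Notch genes. The cause of these changes was not tested. HEYL and NRARP had at most 40 counts in a library, which limits their precision.

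With the replicate block, 5 Notch genes were called in siSMARCA4 against siNT, 5 in 4OHT against DMSO, where HES4 lost its call (0.49, edgeR adjusted p = 0.0655), and 8 in 4OHT siSMARCA4 against DMSO siNT, with 4243, 10520 and 10315 genes called. Between the siSMARCA4 numbers the block left 4 genes called. Deviations from group means of libraries with the same replicate number correlated over 0.1 in 3 of 12, 7 of 10 and 4 of 10 pairs in the 3 comparisons. Those with other replicate numbers did so in 6 of 24, 8 of 20 and 5 of 20. In 4OHT against DMSO the median correlation was 0.238 for the same replicate number and -0.172 for other replicate numbers. By siRNA number it was -0.308 for the same and 0.286 for the other number. Not every pair with the same replicate number was over 0.1 and no label ties such a number to a culture, so replicate numbers were not taken to pair the samples.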

Other observations

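Genes of the secretome were read beside the Notch genes. After the knockdown, 3 of 5 genes of the inflammatory arm rose, IL6 by 1.40, CXCL8 by 1.09 and IL1A by 0.55 (log2, edgeR adjusted p = 0.000372, 0.000388 and 0.0366), while CEBPB and IL1B were at 0.28 and 0.17 (adjusted p = 0.0541 and 0.723). Of all genes 10.4% rose and 13.8% fell. Of the 6 genes of the TGF-beta arm, TGFB1 fell by 0.36 and TGFBI by 0.40 (adjusted p = 0.0293 and 0.0113), and the other 4 were not called. In 4OHT against DMSO, all 5 inflammatory genes rose, by 1.24 for CEBPB and by 3.44 to 10.1 for the other 4 (IL1A was at most 0.192 CPM in DMSO siNT and passed the filter through the 4OHT groups), whereas TGFB1 and TGFBI rose by 1.15 and 1.21 and CCN2 and ACTA2 fell by 1.03 and 1.66, beside 27.0% of all genes higher and 27.4% lower.

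DNER, a non-canonical Notch ligand, was picked because its values separate by siRNA number, so these are a description with no test. It was 4.66 to 5.29 CPM in 4OHT siNT number 2 and 1.59 to 1.82 CPM in number 4, and 2.90 to 3.16 CPM against 3.61 to 4.35 CPM in siSMARCA4.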
